A study of Mus musculus with 6 samples.

Results

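The enzymes described here attach a polar group to drugs, hormones, bile pigments and lipids, or split their esters. They were taken as the array probes whose gene name in the scanner tables begins with Ugt, Sult or Ces and a number, or with Gsta, Gstm, Gstp, Gstt, Gstk, Gsto or Gstz. That gave 69 probes for 50 genes, of 27734 gene names on the array. There were 14 Ugt genes (UDP-glycosyltransferases), 10 Sult genes (cytosolic sulfotransferases), 20 Gst genes (glutathione transferases) and 6 Ces genes (carboxylesterases). Names were brought up to date through RefSeq accessions, which changed 7 of the names, among them Ces3 to Ces1d and Ces2 to Ces2c. A probe was tested where all 3 kidneys of 1 group, ligated or untied, gave signal above background, and 56 probes for 44 genes met this. Of these genes 40 met it in both groups and 4 through the ligated kidneys alone (Ugt2a1, Sult1e1, Sult2b1 and Gstm6). The genes not tested were Ugt1a1, Ugt2b1, Ugt2b35, Sult3a1, Gstt4 and Ces5a.

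The samples were 3 left kidneys whose ureter had been tied and the 3 untied right kidneys of the same CD-1 mice, which the labels number 495, 485 and 512. Each kidney was hybridised to its own single-colour array. CD-1 is an outbred stock, no other genotype or drug is named, and no mouse without a ligation is among the samples, so the untied (contralateral) kidney also comes from an operated animal. The labels name kidney as the tissue and primary cells as the cell type, and neither the age of the mice nor the time after ligation is given in the sources used here.

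UDP-glycosyltransferases move a sugar, most often glucuronic acid from UDP-glucuronate, onto their substrates in the endoplasmic reticulum. Sulfotransferases take sulfate from the donor PAPS, glutathione transferases join electrophiles to glutathione, and carboxylesterases hydrolyse esters and amides. In the kidney many of these enzymes sit in the proximal tubule, whose transporters then pass the conjugates into urine.

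The Ugt1a locus is the member at which the array reads the transcripts of 1 gene family at several places. Its transcripts each join a first exon of their own to last exons that all of them share. The probes printed here are shown because, by the known order of the locus, they map upstream of the shared exons, where the transcripts differ. The files name the second of them, as they name the downstream probe, for the whole locus, and its accession is that of Ugt1a6b. They are given 5′ to 3′ on the plus strand of chromosome 1 in the mm8 build of the file headers. The Ugt1a9 probe lies at chr1:89902627-89902686, the Ugt1a6b probe at chr1:89938426-89938485 and the Ugt1a1 probe at chr1:90043476-90043535. A further probe with the same name and symbol as the second lies downstream of all of them at chr1:90050068-90050127, on the side of the shared exons.
Ugt1a9: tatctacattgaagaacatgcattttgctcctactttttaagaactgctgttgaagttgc
Ugt1a6b: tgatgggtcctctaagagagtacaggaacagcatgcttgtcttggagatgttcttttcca
Ugt1a1: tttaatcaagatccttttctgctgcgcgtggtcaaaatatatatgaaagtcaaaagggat

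Values below are log2 levels: the log2 processed signal minus the 75th percentile of its array, so that 0 is that percentile. A level is not comparable between probes, and only differences between kidneys are compared. The downstream Ugt1a probe stood at 5.29, 5.46 and 4.44 in the ligated kidneys of mice 495, 485 and 512, against 6.99, 7.27 and 6.30 in their contralateral kidneys. The Ugt1a9 probe stood at -3.08, -1.90 and -3.18 in ligated kidneys and at 0.66, 0.83 and -0.50 in contralateral kidneys. At both probes every ligated kidney lay below every contralateral one. The downstream probe fell by 1.79 ± 0.14 on the log2 scale (n = 3 pairs, adjusted p = 0.0223), which is 3.46-fold. The Ugt1a9 probe fell by 3.05 ± 0.28, or 8.30-fold (adjusted p = 0.0223). Here and below, ± is the standard error of limma, which draws on the spread of all tested probes and of the 3 pairs. The Ugt1a6b probe, above background in 2 of 3 ligated kidneys, fell by 2.41 ± 0.31 (at least 5.08-fold, adjusted p = 0.0245). Ugt1a1, the bilirubin transferase of liver, was above background in 1 ligated kidney and in 0 contralateral kidneys and was not tested. In the counts that follow, the downstream probe, the brighter of those with the accession of Ugt1a6b, stands for that gene.

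**Figure D1:**
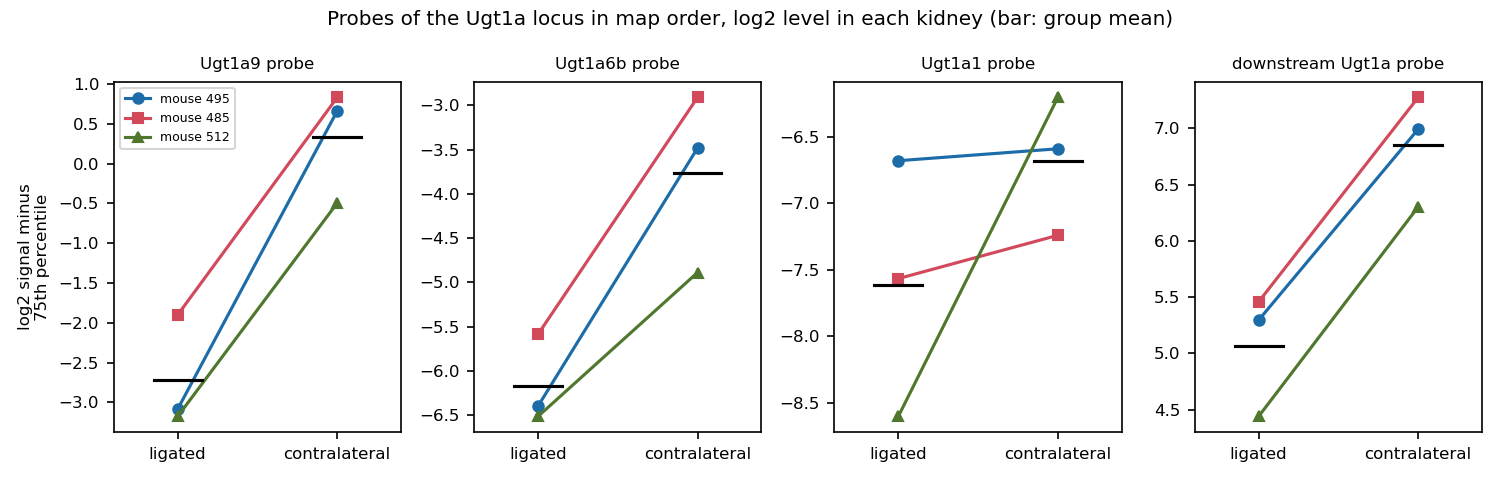
Log2 level (log2 signal minus the array's 75th percentile, vertical axis, each panel with its own scale) of the 4 Ugt1a probes in map order, in ligated (left) and contralateral (right) kidneys. Lines join the kidneys of 1 mouse and bars are group means of n = 3; the Ugt1a9, Ugt1a6b and downstream probes are lower in the ligated kidney of all 3 mice.

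Of 11 Ugt genes tested, 8 were lower in the ligated kidney and 0 higher at an adjusted p under 0.05. Over all 19084 genes tested, 15.4% were called lower and 16.4% higher. No Ugt gene was higher at an unadjusted p under 0.05 in limma either (0 genes). Among the members, the Ugt3a pair showed the largest called changes. In humans its proteins use sugars other than glucuronic acid. Ugt3a1 had levels of 0.88, 2.87 and 1.56 in the ligated kidneys of mice 495, 485 and 512, against 5.74, 5.95 and 3.29 in their contralateral kidneys. Ugt3a2 had 1.88, 3.48 and 2.35 in ligated kidneys, against 6.43, 6.62 and 4.31 in contralateral kidneys. The groups did not overlap for Ugt3a2 or Ugt3a1, and for both the contralateral kidney of mouse 512 was the lowest of its group. Ugt3a1 fell by 3.23 ± 0.65 (9.35-fold, adjusted p = 0.0359) and Ugt3a2 by 3.22 ± 0.54 (9.29-fold, adjusted p = 0.0301). A second Ugt3a2 probe gave a change of -3.33 ± 0.57.

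In the Ugt2b group, which conjugates steroids and drugs, 2 of 4 tested genes were lower. Ugt2b38 stood at 2.41, 3.65 and 2.08 in ligated kidneys and at 5.36, 6.30 and 3.26 in contralateral kidneys, a fall of 2.26 ± 0.40 (4.79-fold, adjusted p = 0.0316). Ugt2b37 fell by 2.03 ± 0.39 (4.07-fold, adjusted p = 0.0337). For both genes the ligated kidney of mouse 485 lay above the contralateral kidney of mouse 512, so the groups overlapped although each mouse showed the fall. Ugt2b5 stood at -1.75, -1.53 and -2.32 in ligated kidneys and at -2.12, -1.92 and -1.81 in contralateral kidneys, a difference of 0.09 ± 0.25 (adjusted p = 0.787). Ugt2b34 differed by -0.39 ± 0.16 (adjusted p = 0.125). The probes of these 4 genes lie in the Ugt2 cluster on chromosome 5, between the Ugt2b34 probe at chr5:87965089-87965148 and the Ugt2b38 probe at chr5:88496163-88496222 (mm8). Whether they differ from each other was not tested.

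Ugt2a3, of the same cluster, fell by 1.21 ± 0.24 (2.31-fold, adjusted p = 0.0347). Ugt2a1, known from the olfactory epithelium, differed by -0.30 ± 0.34 (adjusted p = 0.508) at a probe above background in 2 contralateral kidneys. Ugt8a, which makes the galactosylceramide of myelin and of kidney, stood at 0.45, 0.51 and -0.28 in ligated kidneys and at 1.84, 2.18 and 0.64 in contralateral kidneys. It fell by 1.33 ± 0.20 (2.51-fold, adjusted p = 0.0277), with no overlap between the groups, and was not called with spike-in centring, which sets each array to its spike-in control spots (-1.06, adjusted p = 0.136).

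The sulfotransferases were the family with calls in both directions. Of 9 Sult genes tested, 4 were lower and 3 higher, beside 15.4% and 16.4% of all genes. All 4 that fell belong to Sult1, the phenol and amine sulfotransferases, of which 6 were tested. The 3 that rose were the tested members of Sult2, Sult4 and Sult5. Of Sult2 genes under other names in the files, which are not members, Sult2a2 was lower (-2.67 ± 0.30, adjusted p = 0.0231). Sult2a8, also outside the members, was not called (0.38 ± 0.14, adjusted p = 0.0957). Sult1d1, which sulfates catecholamines in mice, stood at 2.06, 2.32 and 1.78 in the ligated kidneys of mice 495, 485 and 512, against 4.49, 5.07 and 2.70 in their contralateral kidneys. Sult1c2 stood at 4.50, 3.95 and 4.13 in ligated kidneys, against 5.94, 5.24 and 4.96 in contralateral kidneys. Neither gene overlapped between the groups. Sult1d1 fell by 2.03 ± 0.41 (4.09-fold, adjusted p = 0.0368), Sult1c2 by 1.19 ± 0.18 (2.28-fold, adjusted p = 0.028), Sult1c1 by 1.25 ± 0.27 (2.37-fold, adjusted p = 0.0409) and Sult1b1, which sulfates thyroid hormones, by 1.17 ± 0.21 (2.26-fold, adjusted p = 0.0316). With spike-in centring 1 Sult gene was called lower and 4 higher, where 4571 of all 29093 probes were called in either direction.

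Sult4a1, a brain form whose substrate is not settled, stood at 0.44, 0.32 and 1.06 in ligated kidneys, against -3.30, -3.70 and -0.01 in contralateral kidneys. Sult2b1, which sulfates cholesterol and other sterols in skin, stood at -3.01, -3.04 and -2.74 in ligated kidneys and at -5.41, -6.40 and -3.59 in contralateral kidneys. Sult5a1 stood at -2.08, -2.23 and -2.47 in ligated kidneys and at -4.46, -3.94 and -4.60 in contralateral kidneys. All ligated kidneys lay above all contralateral ones for these 3 genes, and the contralateral kidney of mouse 512 was the highest of its group for Sult4a1 and Sult2b1 and the lowest for Sult5a1. Sult4a1 rose by 2.94 ± 0.67 (7.70-fold, adjusted p = 0.0429). A second Sult4a1 probe, above background in 1 contralateral kidney, differed by 2.65 ± 0.86 (adjusted p = 0.081) and was not called. Sult2b1 rose by 2.20 ± 0.53 (at least 4.10-fold, adjusted p = 0.0464), with 2 of 3 contralateral kidneys above background, and Sult5a1 rose by 2.07 ± 0.19 (4.21-fold, adjusted p = 0.0223). With normexp background correction these differences were smaller, at 0.61 for Sult2b1, 1.16 for Sult5a1 and 2.35 for Sult4a1, and all were still called (adjusted p = 0.0373, 0.0189 and 0.0282). Quantile normalization ended the call of Sult2b1 (1.89, adjusted p = 0.0579).

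Sult1e1, the estrogen sulfotransferase, stood at -5.52, -5.17 and -2.41 in ligated kidneys and at -7.33, -5.99 and -6.43 in contralateral kidneys, of which 0 were above background. Its difference of 2.22 ± 0.67 (at least 3.22-fold, adjusted p = 0.0706) was not called. Sult1a1, the general phenol sulfotransferase, stood at 1.12, 1.36 and 1.36 in ligated kidneys and at 1.24, 1.13 and -0.57 in contralateral kidneys. Its mean difference of 0.68 ± 0.46 (adjusted p = 0.295) joined 1.93 in mouse 512, whose contralateral kidney was the low one, to -0.13 and 0.23 in the other two mice. Sult2b1 and Sult1e1 were tested through their signal in ligated kidneys alone, a choice that favours genes higher there.

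**Figure D2:**
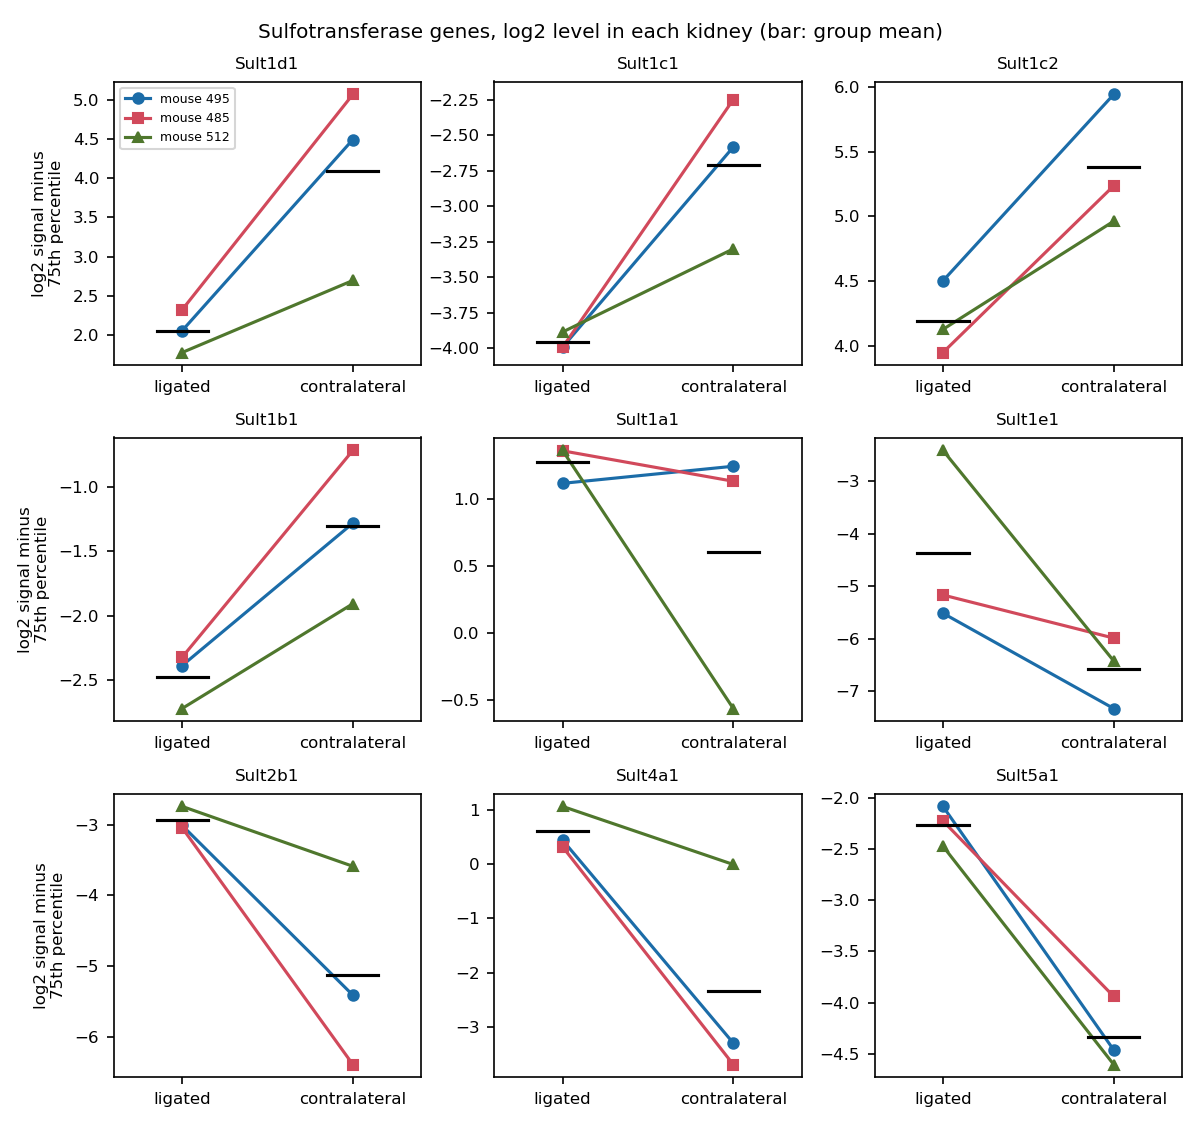
Log2 level of the 9 tested member sulfotransferase genes in ligated (left) and contralateral (right) kidneys, each panel with its own vertical scale. Lines join the kidneys of 1 mouse and bars are group means of n = 3; Sult1d1, Sult1c1, Sult1c2 and Sult1b1 lie lower in ligated kidneys, and Sult2b1, Sult4a1 and Sult5a1 lie higher.

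Sulfotransferases and glycosyltransferases are neighbours on chromosome 5. The probes of Sult1b1 (chr5:88589482-88589541), Sult1d1 (chr5:88630194-88630253) and Sult1e1 (chr5:88650723-88650782) follow the Ugt2a1 probe at chr5:88536485-88536544 in the mm8 build. Among these 4 genes the difference ran from -2.03 for Sult1d1 to 2.22 for Sult1e1.

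All calls among the glutathione transferases were falls. Of 19 genes tested, 9 were lower and 0 higher, beside 15.4% and 16.4% of all genes. At an unadjusted p under 0.05 in limma 12 were lower and 0 higher, where 14454 of all 29093 probes were under it in either direction. Of the 10 genes not called, 4 had positive differences. The calls spread over the classes: 2 of 4 Gsta genes, 3 of 7 Gstm genes, 2 of 3 Gstt genes, Gstp1 and Gstz1. The count of lower genes was 5 with quantile normalization and 1 with spike-in centring, at Gst medians of -0.64 and -0.71. Of all probes, these settings called 8352 and 4571 in either direction, against 8780 in the fit reported here. The largest fall of the family was in Gstz1, maleylacetoacetate isomerase of tyrosine breakdown. It stood at 1.14, 1.73 and 1.29 in the ligated kidneys of mice 495, 485 and 512, against 4.03, 4.25 and 2.30 in their contralateral kidneys, and fell by 2.14 ± 0.42 (4.42-fold, adjusted p = 0.035). Gsta3 stood at 1.39, 1.49 and 1.30 in ligated kidneys and at 3.11, 2.87 and 3.01 in contralateral kidneys. It fell by 1.60 ± 0.15 (3.03-fold, adjusted p = 0.0223), with mouse 512 inside the range of the other mice. Gstt2 fell by 1.58 ± 0.20 (2.98-fold, adjusted p = 0.0242) and Gstt1 by 0.87 ± 0.17 (1.83-fold, adjusted p = 0.0358). The 3 Gstt1 pairs moved together, but the groups overlapped, since both kidneys of mouse 485 were low, at -1.88 in the ligated kidney and -1.06 in the contralateral one.

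Gstp1, the pi class enzyme, stood at 5.49, 5.11 and 5.36 in ligated kidneys and at 6.38, 6.49 and 6.05 in contralateral kidneys, a fall of 0.99 ± 0.19 (1.98-fold, adjusted p = 0.0351). Gstm1 stood at 5.18, 5.28 and 5.26 in ligated kidneys, against 6.53, 6.46 and 5.93 in contralateral kidneys, a fall of 1.06 ± 0.20 (2.09-fold, adjusted p = 0.0326). Both genes separated the groups fully. Gstm3 fell by 1.12 ± 0.19 (2.17-fold, adjusted p = 0.0305), Gstm5 by 0.91 ± 0.14 (1.88-fold, adjusted p = 0.0271) and Gsta4, which clears the lipid peroxidation product 4-hydroxynonenal, by 0.72 ± 0.17 (1.64-fold, adjusted p = 0.047). These Gstm genes lie in a cluster on chromosome 3 with Gstm2, Gstm4, Gstm6 and Gstm7, whose differences of 0.46 ± 0.17, -0.52 ± 0.21, 1.03 ± 0.46 and -0.65 ± 0.23 were not called. Gstm2 was called higher with quantile normalization (0.79, adjusted p = 0.0331). With quantile normalization the differences of Gstm1, Gstm3 and Gstp1 were -0.34, -0.45 and -0.26 and these were not called (adjusted p = 0.152, 0.0781 and 0.227).

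Gsta1 and Gsta2, alpha class enzymes that follow the antioxidant response in liver, differed between the mice in sign. Gsta1 stood at 0.09, 0.95 and -0.36 in the ligated kidneys of mice 495, 485 and 512, against 1.76, 0.75 and 3.83 in their contralateral kidneys. Gsta2 stood at -0.48, 0.45 and -1.002 in ligated kidneys, against 1.34, -0.06 and 3.28 in contralateral kidneys. For both genes the contralateral kidney of mouse 512 was the highest of all 6 kidneys, while for Gstz1 it was the lowest contralateral kidney. The differences were -1.89 ± 0.90 for Gsta1 (adjusted p = 0.165) and -1.87 ± 0.97 for Gsta2 (adjusted p = 0.194). These 2 genes are close paralogs, and how far each probe binds the other's transcript was not tested. Aligned without gaps, the Gsta1 and Gsta2 probes shared 27 identical bases over an overlap of 28. Among all members, 60-base probes of different genes shared at most 31 identical bases without gaps (2325 pairs). That highest count, for Gstm2 and Gstm1, was over 60 aligned bases.

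Gstk1, the mitochondrial and peroxisomal form, stood at 1.85, 1.91 and 1.66 in ligated kidneys and at 3.74, 4.22 and 2.07 in contralateral kidneys. Its groups did not overlap, yet the difference of -1.54 ± 0.42 (adjusted p = 0.059) missed the threshold, and without mouse 512 it was -2.10 (adjusted p = 0.00402). Gsto1, an omega class enzyme that reduces dehydroascorbate, stood at 3.79, 3.56 and 4.06 in ligated kidneys and at 2.97, 2.21 and 4.43 in contralateral kidneys, a difference of 0.60 ± 0.38 (adjusted p = 0.264). Without mouse 512 Gsto1 was 1.08 higher in ligated kidneys (adjusted p = 0.0175). Gsto2 differed by 0.04 ± 0.16 and Gstt3 by -1.08 ± 0.30 (adjusted p = 0.867 and 0.0582).

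The carboxylesterases had the widest spread between mice. Of 5 genes tested, 2 were lower and 0 higher, beside 15.4% and 16.4% of all genes. At an unadjusted p under 0.05 in limma 3 were lower and 0 higher, where 14454 of all 29093 probes were under it in either direction. Ces2c stood at 1.01, 2.65 and 1.15 in the ligated kidneys of mice 495, 485 and 512, against 5.36, 5.60 and 3.04 in their contralateral kidneys. Ces2e stood at -1.10, -0.70 and -1.31 in ligated kidneys, against 0.78, 0.47 and 0.53 in contralateral kidneys. In both genes every ligated kidney lay below every contralateral one. Ces2c fell by 3.07 ± 0.51 (8.37-fold, adjusted p = 0.0301) and Ces2e by 1.63 ± 0.21 (3.10-fold, adjusted p = 0.0246). With spike-in centring Ces2e was not called (-1.36, adjusted p = 0.0754). Ces2a stood at -2.47, -2.31 and -0.92 in ligated kidneys and at -2.33, -2.80 and -2.68 in contralateral kidneys, a difference of 0.70 ± 0.41 (adjusted p = 0.235).

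Ces1d, a triacylglycerol hydrolase of the endoplasmic reticulum, stood at -1.82, 0.12 and -0.30 in ligated kidneys, against 3.59, 4.11 and 0.21 in contralateral kidneys. The differences were -5.41, -3.99 and -0.52 in mice 495, 485 and 512, with a mean of -3.30 ± 1.02 that was not called (adjusted p = 0.0737) and was -4.70 without mouse 512 (adjusted p = 0.00412). Ces1g stood at -6.14, -6.22 and -3.07 in ligated kidneys and at -2.49, -1.06 and -3.90 in contralateral kidneys. Its mean difference of -2.66 ± 1.26 (adjusted p = 0.164) joined -3.65 and -5.17 in mice 495 and 485 to 0.82 in mouse 512. The probes of all 6 Ces genes lie on chromosome 8. A further 12 genes that now carry Ugt, Sult, Gst or Ces symbols stood under other names in the files and are not members. They were chosen after their symbols were updated, and 8 of them were tested. Of these, 3 (Ces2b, Ces2f and Sult2a2) were lower and 0 higher, beside 15.4% and 16.4% of all genes.

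**Figure D3:**
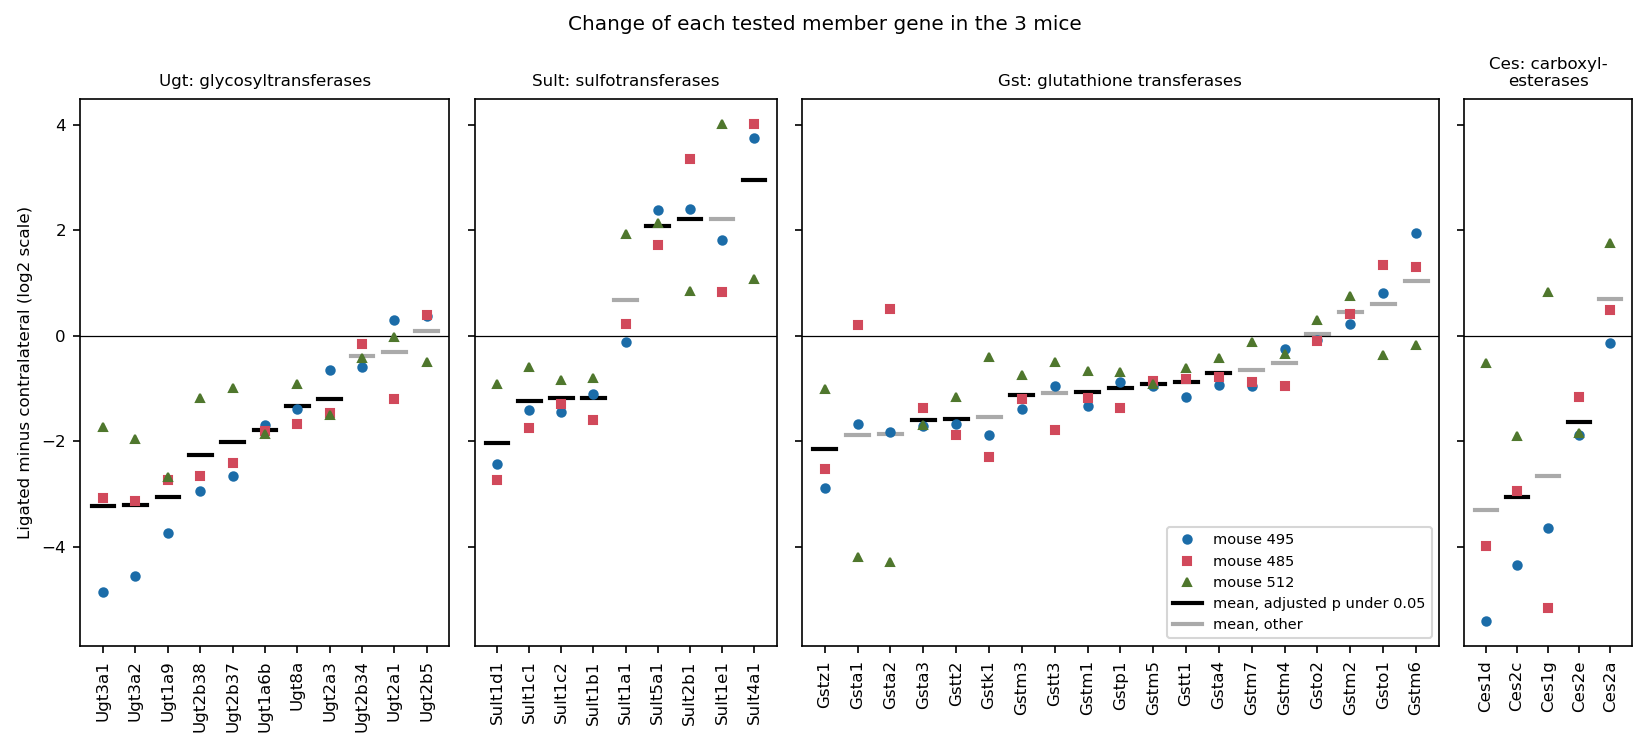
Ligated minus contralateral difference on the log2 scale for each of the 44 tested genes, by family and ordered by the fitted mean. Points are the 3 mice and bars the means, black where the adjusted p was under 0.05; Ugt1a6b is the downstream Ugt1a probe. Differences run from -3.30 for Ces1d to 2.94 for Sult4a1 in the mean, and the points of mouse 512 often lie nearest 0.

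Set side by side, the 4 families had median changes of -1.79 (Ugt), 0.68 (Sult), -0.99 (Gst) and -2.66 (Ces), against -0.02 over all genes tested. The families were described by these medians and counts and were not tested against each other, since genes of a family are not replicates. In mice 495, 485 and 512 the Ugt median was -1.70, -1.82 and -1.18, and the Gst median was -0.96, -0.87 and -0.62. The Ces median was -3.65, -2.95 and -0.52. These families kept 1 sign in all 3 mice. The Sult median was -0.13, 0.23 and 0.85, and its sign followed which genes were tested: it was -0.25 with no filter on dim probes and -1.17 when signal on all 6 arrays was asked.

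**Figure D4:**
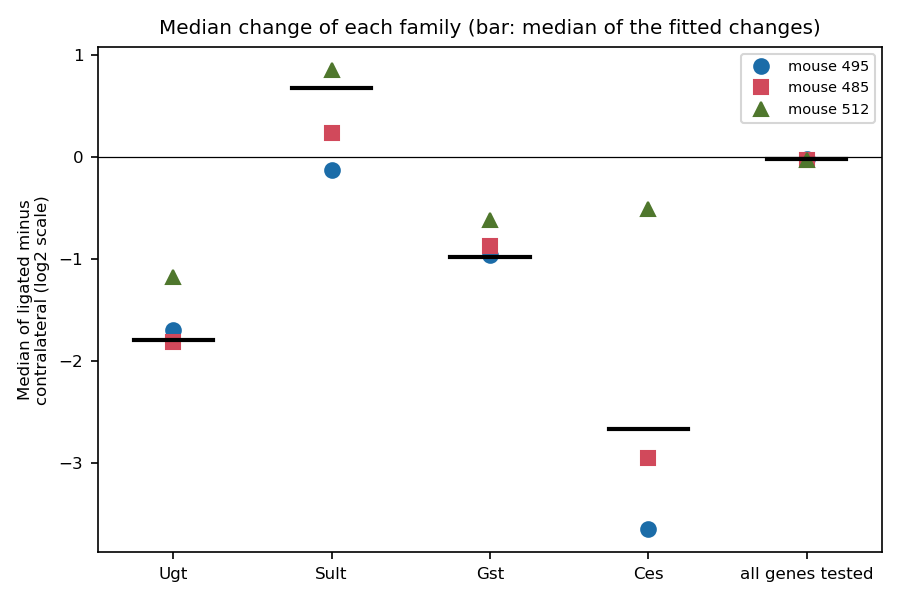
Median of the ligated minus contralateral differences (log2 scale) over the tested genes of each family and over all 19084 genes tested. Points are the 3 mice and bars the median of the fitted changes; the Ugt, Gst and Ces points lie below 0 in every mouse, while those of all genes lie between -0.04 and -0.02.

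Over all members, 23 of 44 tested genes were called lower, 3 higher and 18 neither, where 31.7% of all genes were called in either direction. Of the members, 24 had every ligated kidney below every contralateral one, where 29.1% of all genes did, and 4 had every ligated kidney above, where 24.6% did. Among these 4 were Sult1e1 and Sult2b1, tested through their signal in ligated kidneys alone, a choice that favours genes higher there. Sult2b1 was also among the 3 called higher. In 29 of 44 genes the ligated kidney was lower in all 3 mice, as in 38.2% of all genes. The contralateral kidney of mouse 512 lay below both other contralateral kidneys for 29 of the 44 genes and above both for 7. Mouse 512 had the smallest absolute difference of the 3 mice in 28 of 44 genes. No share of all genes stands beside these counts of mouse 512, and whether they are particular to the members was not tested. The arrays of mouse 512 were on a slide of their own, so slide and mouse cannot be told apart. Of 12 genes with several tested probes, the probes had the same sign in 12 and the same call in 11, Sult4a1 being the exception.

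The calls needed mice 495 and 485. Without mouse 495 or mouse 485 limma called 0 probes of the whole array, with 7194 and 7401 probes at an unadjusted p under 0.05, against 8780 called probes (30.2% of 29093) with all mice. Among the 44 genes, 24 and 28 stayed under an unadjusted p of 0.05 in these fits. Without mouse 512 the counts were 8 of 11 lower for Ugt, 12 of 19 for Gst and 4 of 5 for Ces, with 4 Sult genes lower and 4 higher, and 2 Gst genes higher. That fit also called more probes of the whole array, 15878 of 29093 in either direction. In a fit that ignores the pairing, with no replicate block, the Ugt count was 4 lower and the Sult count 1 higher: the 9 calls of Ugt2a3, Ugt2b37, Ugt2b38, Ugt8a, Sult1d1, Sult2b1, Sult4a1, Gsta4 and Gstt1 were lost, with adjusted p between 0.0529 and 0.236. Spike-in centring, which moved the median of all genes up to 0.26, ended 14 of the 26 calls (adjusted p between 0.0635 and 0.6). These were Ugt2a3, Ugt8a, Sult1b1, Sult1c1, Sult1c2, Ces2e and all the called Gst genes but Gstz1.

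In 2 lists of genes around UDP-glucuronate and PAPS, the donors of these enzymes, every called gene was lower. The lists hold not only genes that supply the donors but also others, among them phosphatases and sulfatases. Beside the counts in these and the following lists stand 15.4% of all genes called lower and 16.4% called higher. In the UDP-glucuronate list, 7 of 10 genes fell and 0 rose (0 also at an unadjusted p under 0.05), with a median change of -1.14. The largest falls were in the nucleotide phosphatases Entpd5 (-2.45 ± 0.26, adjusted p = 0.0223) and Entpd4 (-1.97 ± 0.42, adjusted p = 0.0388). Ugdh, which makes UDP-glucuronate, fell by 1.14 ± 0.18 (adjusted p = 0.0278). For PAPS and the removal of sulfate, 4 of 11 genes fell and 0 rose (1 at an unadjusted p under 0.05), with a median of -1.25. The lysosomal sulfatase Arsb fell by 2.25 ± 0.32 (adjusted p = 0.026) and the sulfate transporter Slc26a1 by 1.94 ± 0.15 (adjusted p = 0.0223), and Papss2, a PAPS synthase, fell by 1.83 ± 0.30 (adjusted p = 0.0298).

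In glutathione synthesis and breakdown 13 of 20 genes fell and 1 was called higher, with a median of -1.37. Ggt1, which starts the breakdown of glutathione conjugates at the brush border, fell by 2.65 ± 0.39 (adjusted p = 0.0269) and the dipeptidase Dpep1 by 2.53 ± 0.60 (adjusted p = 0.0465). Both subunits of glutamate-cysteine ligase were among the genes that fell, Gclc by 1.35 ± 0.16 and Gclm by 1.28 ± 0.15 (adjusted p = 0.0238 for each). The gene called higher was Slc7a11, the cystine importer (1.53 ± 0.31, adjusted p = 0.0371), which was above background in 3 ligated and 0 contralateral kidneys, so that only an at least 1.13-fold rise was measured. Among 14 transporters that carry conjugates and organic anions, 7 fell and 1 rose. The uptake carriers Slc22a8 and Slc22a6 fell by 4.10 ± 0.93 and 3.60 ± 0.78 (adjusted p = 0.0426 and 0.0398). Export pumps changed in both directions. Abcc2 fell by 2.19 ± 0.15 and Abcg2 by 1.84 ± 0.15 (adjusted p = 0.0223 for each), and the 1 that rose was Abcc3, by 2.47 ± 0.49 (adjusted p = 0.0358).

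Of 18 other conjugating enzymes, 8 fell and 1 rose, with a median of -0.85. Mgst2, a microsomal glutathione transferase that also makes leukotriene C4, rose by 2.82 ± 0.22 (adjusted p = 0.0223), and Acsm3, an acyl-CoA synthetase of amino acid conjugation, fell by 2.74 ± 0.42 (adjusted p = 0.0278). Of 13 other esterases and hydrolases 5 fell and 1 rose, with a median of -0.39. Ephx2, the soluble epoxide hydrolase, fell by 2.04 ± 0.29 (adjusted p = 0.026) and Aadac, an esterase of liver and gut, by 2.00 ± 0.37 (adjusted p = 0.0323). Of 23 genes in a list of regulators of these enzymes and of regulators' targets (Nqo1, Hmox1, Srxn1 and Txnrd1), 8 fell and 2 rose, with a median of -0.36. Of the 2 that rose, 1 was above background in 3 ligated kidneys and 1 contralateral kidney, a rise of at least 2.03-fold. Both Nqo1 and Txnrd1 were among those that fell. Nqo1, a target of the antioxidant factor Nrf2, fell by 2.28 ± 0.15 (adjusted p = 0.0223) and the nuclear receptor Ppara by 2.16 ± 0.27 (adjusted p = 0.0242). Nfe2l2, which encodes Nrf2, differed by 0.29 ± 0.19 (adjusted p = 0.283). Hnf4a, a nuclear receptor of the proximal tubule and liver, fell by 1.72 ± 0.19 (adjusted p = 0.0231).

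**Figure D5:**
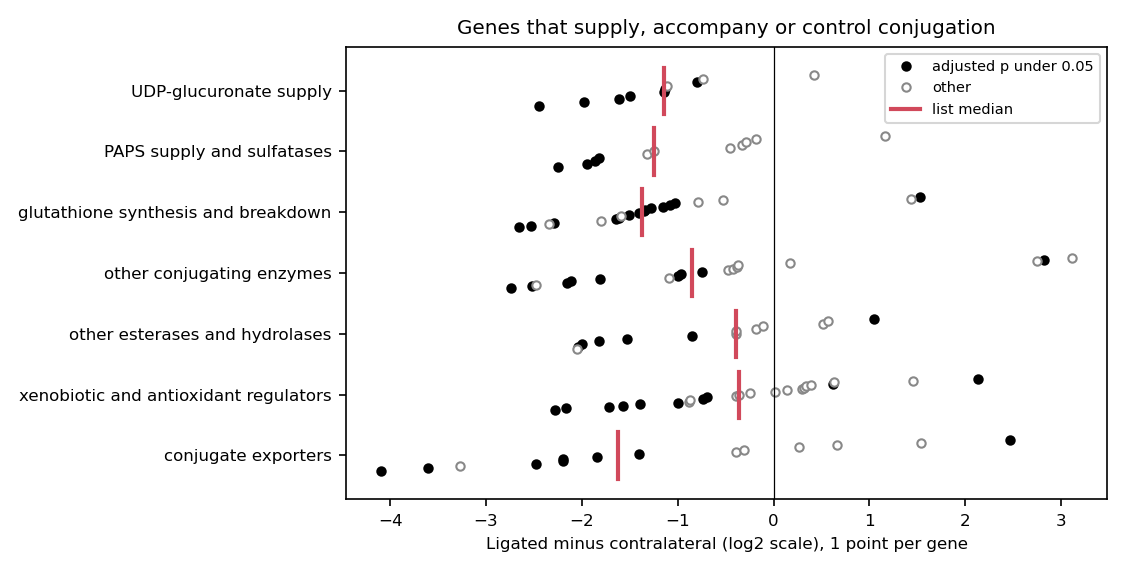
Ligated minus contralateral change on the log2 scale (horizontal axis) of each tested gene in 7 lists that surround the member enzymes, with filled points for an adjusted p under 0.05 and a red bar at the list median. List medians, all below 0, lie between -1.62 for conjugate exporters and -0.36 for the regulators and their targets. The list labelled conjugate exporters also holds uptake carriers, among them Slc22a6 and Slc22a8.

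Markers of cell types also changed, some lists downwards and others upwards, and their part in these results was not tested. In bulk kidney, fewer cells of a type and less RNA per cell cannot be told apart. Over all genes tested, 15.4% were called lower and 16.4% higher. Of 14 proximal tubule markers 10 fell and 0 rose (0 also at an unadjusted p under 0.05), with a median of -2.25. Their summed signal, as a multiple of the 75th percentile, was 334 to 453 in ligated kidneys and 604 to 2115 in contralateral kidneys, where mouse 512 gave the 604. The 2 with the largest changes were the carriers Slc22a8 and Slc22a6 above. Collecting duct markers fell in 6 of 8 genes, with summed signals of 4.89 to 8.32 in ligated kidneys and 17.5 to 47.2 in contralateral kidneys, led by the water channels Aqp2 (-2.88 ± 0.14) and Aqp3 (-2.66 ± 0.34). Of 6 loop and distal tubule markers 1 fell, the salt transporter gene Slc12a3 (-1.84 ± 0.43), with summed signals of 108 to 153 in ligated kidneys and 95.3 to 306 in contralateral kidneys.

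Macrophage markers rose in 8 of 8 genes, with summed signals of 189 to 218 in ligated kidneys and 15.5 to 47.1 in contralateral kidneys, again with mouse 512 at the end nearest the ligated kidneys. Mrc1 and Adgre1 rose by 3.61 ± 0.58 and 3.42 ± 0.47 on the log2 scale. Fibroblast and myofibroblast markers rose in 6 of 8 genes (summed signals of 129 to 258 in ligated kidneys and 14.2 to 68.8 in contralateral kidneys), with Col1a1 and Col3a1 higher by 3.86 ± 0.90 and 3.75 ± 0.81. Endothelial markers rose in 3 of 6 genes (summed signals of 11.7 to 14.9 in ligated and 7.54 to 12.2 in contralateral kidneys) and podocyte markers in 2 of 5 (4.23 to 5.12 and 1.71 to 2.79). Of 7 T and B cell markers only Cd3d was called higher, where 16.4% of all genes were. Their summed signals were 1.30 to 3.90 in ligated and 0.438 to 0.593 in contralateral kidneys. Of hepatocyte markers, which share much of this enzyme set, Apoa1, Cps1 and Ahsg were not tested for lack of signal, and of 4 tested only Apoh fell (-2.24 ± 0.39), with summed signals of 0.756 to 2.81 in ligated and 3.70 to 9.79 in contralateral kidneys. The hepatocyte marker Fgb, which encodes a fibrinogen chain, stood at -0.39, -0.88 and -3.11 in the ligated kidneys of mice 495, 485 and 512, against -6.40, -7.64 and 1.09 in their contralateral kidneys. It was thus high in the contralateral kidney of mouse 512 and low in the other two. Adipoq, Plin1, Lep and Cfd of fat were not tested for lack of signal, and Fabp4 rose in 1 of 3 tested fat markers. Of 4 adrenal markers 1 fell (Hsd3b1), and of 2 tested urothelial markers 0 were called or had an unadjusted p under 0.05 (limma).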

How the data were processed

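Cy3-labelled cRNA of 6 kidneys was hybridised, as the labels' protocols state. For every array (Agilent design 014868, mm8 positions) the authors deposited a scanner table. Its processed signal is a linear intensity that Feature Extraction had background-subtracted and detrended, per the file headers, and its mean and background signals are raw intensities. The flags for spots above background, saturated or outlying are 0 or 1, per the file headers. The headers give version 10.5.1.1 and the submitters' processing notes 9.1, which was not resolved. The deposited value table of the series holds a linear ratio, the processed signal over the array's median, and served as an alternative.

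Control spots and outlier spots (43 to 79 of 43379 per array) were left out, and 0 spots were saturated. Log2 signal was centred on each array's 75th percentile and spots of a probe were averaged. The 75th percentile was 1068 to 1432 in ligated kidneys and 671 to 1106 in contralateral kidneys, with 72.1% to 74.7% and 65.7% to 69.5% of spots above background. Probes with at least 0.5 of their spots above background on all 3 arrays of 1 group were tested (29093 of 41174) with limma 3.58.1 in R 4.3.3 (lmFit, eBayes, two-sided), with a fixed term for each mouse, and p-values were adjusted by Benjamini and Hochberg's method over all of them. The brightest tested probe stood for its gene. Residual degrees of freedom were 2, to which eBayes added 2.13, and the number of arrays limits the precision. Fold changes are ligated over contralateral; "at least" marks a bound against the lowest signal above background where the dimmer group was partly or wholly below it.

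Mouse numbers in the labels pair the kidneys. Deviations from the group means correlated at 0.202, 0.474 and 0.279 within mice 495, 485 and 512, and at most at 0.0158 between mice. Such deviations sum to 0 over the 3 mice of a group, so the correlations within and between mice are not independent of each other. P-values rest on the spread over these 3 animals, which eBayes draws towards the spread of all tested probes. The scripts were tested on simulated data. Alternatives changed the block, scaling, background correction, filter, probe rule and mice. The members and the gene lists were chosen with earlier results of these data known. Named by rule were the 5 largest called rises and falls of each family, the smallest p where none was called, a set of members given by name, and the 2 largest called changes of each list; other genes were named after their values were seen. Current symbols came from a RefSeq table of another build, used for names alone. Some results on single regulators and the search of promoters for motifs are not reported here.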

Additional observations from a re-analysis of the deposited data

How the results depend on the processing

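Median changes of Ugt, Gst and Ces stayed below 0 under all 16 alternatives. Scaling moved the median of all genes from -0.02 to -0.32 with median centring, -0.18 with normexp and 0.26 with spike-in centring (-0.23 with no filter), and member changes are relative to it. The Gst median was then -1.28 with centring on the median, -0.71 with spike-in centring and -0.64 with quantile normalization. The Ugt median was -1.27 with no filter. The Sult median was 0.0499 to 1.08 with 1 mouse left out (lowest without mouse 512), 0.0914 in an unpaired fit without the contralateral kidney of mouse 512, -0.25 with no filter and -1.17 with signal on all 6 arrays.

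Spike-in centring called 1 Gst gene and 1 Sult gene lower, and quantile normalization 5 Gst genes lower and 1 higher. No filter called 5 Ugt, 3 Gst and 1 Sult gene lower and 1 Sult gene higher. With no replicate block, 4 Ugt genes were lower and 1 Sult gene higher. Without the contralateral kidney of mouse 512, 4 Ces genes were lower and 2 Gst genes higher. Leaving out 1 mouse gave 0 to 8 Ugt, 0 to 12 Gst, 0 to 4 Sult and 0 to 4 Ces genes lower, and 0 to 4 Sult and 0 to 2 Gst genes higher. The cause of these shifts was not tested.

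Over all probes, 4444 were higher and 4336 lower, against 7484 and 8456 without that contralateral kidney, 0 to 7697 and 0 to 8181 with 1 mouse left out, and 2572 and 1580 with no filter. Normexp gave 2578 higher, centring on the median 8856 lower and spike-in centring 958 lower. Fits on 1 probe per gene tested fewer features (2848 lower, or 2648 with the mean of the probes). Ugt2b5 changed sign, at -0.21 with centring on the median, -0.10 with quantile normalization, -0.0116 with normexp, and -0.0537 and -0.0648 without mouse 495 and without mouse 485 (0.39 without mouse 512). The median of all genes was also above 0, at 0.0132 with quantile normalization, 0.0108 with the deposited value table and 0.00467 with the mean of the probes. Dim probes limit Sult1e1, Sult2b1 and the genes not tested.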
